A study of Homo sapiens with 8 samples.

Results

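LDB1 was knocked down in 6T-CEM cells, a human T-cell acute lymphoblastic leukaemia (T-ALL) line derived from CCRF-CEM, and the RNA was sequenced. All 4 libraries of this line were taken, out of 8 libraries in the series, and the remaining libraries came from J.gamma1, a T-ALL line derived from Jurkat. The sh-NC group (n = 2) carried a control short hairpin RNA and the sh-LDB1 group (n = 2) a hairpin against LDB1, and both lack any other treatment or allele in the labels. Per the study's methods, hairpins were delivered with the lentiviral vector pLKO.1 and infected cells were selected with puromycin. Whether the replicates were separate infections is not given in the sources used here, so the p-values measure the spread between libraries, which may be technical.

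LDB1 is an adaptor protein that binds no DNA itself. It forms dimers and holds LIM-domain proteins such as LMO2, which in blood progenitors sit in a complex with TAL1 or LYL1, an E protein and a GATA factor, and by this it brings enhancers and promoters together. The complex is known for the maintenance of blood stem cells, for red cell genes, and for T-ALL, where TAL1, LYL1 and LMO2 act as oncogenes. T-ALL cells resemble thymocytes stopped at a step of T-cell development, and their gene expression is usually read against that sequence of steps.

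The methods list 3 hairpins against LDB1, and which of them the sequenced 6T-CEM cells carried is not given in the sources used here. Their targets are shown since each hairpin has its own seed, the short stretch of the guide strand that can pair with 3′ UTRs of other transcripts. Capitals mark the 7 bases that pair with the seed.
sh-LDB1#1: ggacagaggagtgTGACAATc
sh-LDB1#2: gctacttccgcagCATCTTTg
sh-LDB1#3: ggataaagacgtgGCACTTCa
Each target of 21 bases lies in the coding sequence of LDB1 (ENSG00000198728, minus strand of chromosome 10, GRCh38), which has 11 exons in the transcript used. The target of sh-LDB1#1 crosses the junction of exons 4 and 5 (chr10:102110959-102111076 with the intron), that of sh-LDB1#2 is in exon 6 (chr10:102110657-102110677) and that of sh-LDB1#3 in exon 7 (chr10:102109971-102109991).

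The libraries held between 27559805 and 29980344 counts, and between 2.98% and 4.45% of the counts came from mitochondrial genes, with both extremes among the sh-NC libraries. Replicates correlated with a Pearson r of 0.986 in both groups across genes, against 0.971 to 0.973 between groups. All 12 T-ALL markers were measured, and their summed level was 2138 and 2140 CPM (counts relative to library size) in the controls against 2600 and 2663 CPM after knockdown. CD2 was near the floor, with 9 to 14 counts in every library. Of the 7 erythroid and megakaryocyte markers, 0 passed the filter on low counts, and HBB and PF4 were at 0 in all 4 libraries. The 7 myeloid markers summed to between 1.74 and 2.74 CPM with ELANE at 0, and the 5 markers of epithelial and stromal cells to between 0.92 and 2.77 CPM with COL1A2 at 0. The 6 B-cell markers summed to 32.3 and 33.0 CPM with sh-NC and to 40.9 and 44.5 CPM with sh-LDB1, most of it CD79A, while MS4A1 and EBF1 were at 0. The 5 natural killer markers summed to 13.4 and 11.7 CPM with sh-NC and to 33.9 and 34.3 CPM with sh-LDB1, most of it NKG7, and KLRD1 was at 0. The part of these markers in the results was not tested. In bulk RNA a change in the share of cells and a change in RNA per cell cannot be told apart.

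LDB1 RNA itself fell to 33.1% of its control level. The gene held 102 and 106 CPM in the controls against 35.2 and 33.5 CPM after knockdown, a log2 fold change of -1.60 with a standard error (SE) of 0.071 and an adjusted p of 1.02e-09 (quasi-likelihood test of edgeR, p-values adjusted after Benjamini-Hochberg). The groups were well separated, so the labels and the targeted gene point the same way.

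Of 64252 genes in the table, 16059 passed the filter on low counts and were tested. At an adjusted p under 0.05 with a log2 fold change beyond 1, which is what a call means below, 440 genes were higher (2.74% of those tested) and 384 lower (2.39%) in LDB1-knockdown 6T-CEM cells. At the same adjusted p without a limit on the fold change, 2425 genes were higher (15.1%) and 2598 lower (16.2%), and these last shares are the background for each gene list below. The median log2 fold change of all tested genes was 0.003. Of the genes called, 312 higher and 288 lower were protein-coding, and 62 higher and 44 lower were long non-coding RNAs. For all 824 called genes, both libraries of a group lay on the same side of both libraries of the other. The same held for 5199 genes on the higher side and 5253 on the lower side of the 16059 tested. Such separation was thus common among all tested genes.

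The genes that rose most had few counts in the control cells and included 2 gene segments of the T-cell receptor alpha chain. TRAC (ENSG00000277734, chr14:22547506-22552156), the constant segment of that chain, had 59 and 62 counts in the controls against 627 and 579 after knockdown, a 9.14-fold rise. TRAV29DV5 (ENSG00000211810, chr14:22163238-22163870), a variable segment used in alpha and delta chains, went from 11 and 16 counts to 230 and 247. In both segments no control library came near a knockdown library. EPHA2 (ENSG00000142627, chr1:16124337-16156069), a receptor tyrosine kinase for ephrins, went from 13 and 10 counts to 214 and 246, or 4.19 on the log2 scale (SE 0.281, adjusted p = 6.06e-08 by edgeR). MYH7B, a slow muscle myosin heavy chain, had 24 and 14 counts in the controls against 286 and 329 after knockdown, a log2 fold change of 3.88. SOCS1 (ENSG00000185338, chr16:11254417-11256204), an inhibitor of JAK kinases, had 35 and 37 counts in the controls against 256 and 274 after knockdown, a 6.75-fold rise. In these 3 genes and in the 2 segments above the groups did not overlap, which was a condition for naming them.

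Other genes of low control level that rose by the same rule were DBH, which makes noradrenaline from dopamine (log2 fold change 3.14), CREB3L3, a membrane-bound transcription factor (2.61), ADAMTSL2, a secreted matrix protein (2.49), the antisense RNA EPHA1-AS1 (2.35), the glycine transporter SLC6A9 (2.28) and LST1, a membrane protein of leukocytes (2.18). The standard errors of these 6 lay between 0.206 and 0.410, and the adjusted p was at most 0.0134 (edgeR), that of LST1. BIVM-ERCC5, a read-through gene on chromosome 13 whose exons are shared with BIVM and ERCC5, was at 0 counts in both sh-NC libraries and at 1849 and 1890 with sh-LDB1, at least 573-fold higher than 3 counts per library. ERCC5, a DNA repair nuclease, went the other way, from 1984 and 1975 counts to 885 and 840. Summed over the 3 overlapping genes, the level was 111 and 110 CPM in the controls against 118 and 118 CPM after knockdown, so what moved was the division of these reads among the 3 names and hardly their total.

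Among genes called higher the largest gain in CPM was that of RAG1 (ENSG00000166349, chr11:36510372-36593156), the recombinase that cuts T-cell and B-cell receptor genes. It had 2495 and 2788 counts in the controls against 8943 and 8937 after knockdown, or 1.64 on the log2 scale (SE 0.059, adjusted p = 9.09e-11 by edgeR). RAG2, its partner, rose from 265 and 219 counts to 535 and 551. The pair overlap by 588 exon bases on opposite strands and whether the counting used the strand is not given in the sources used here, so RAG2 at its lower level is uncertain. SH3TC1 rose 3.67-fold, PLEC, a linker of the cytoskeleton, rose 2.57-fold, SEMA7A, a membrane-anchored semaphorin, had a log2 fold change of 1.44, and FBXW7, the ubiquitin ligase subunit that removes NOTCH1 and MYC, one of 1.09.

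Several of the genes that fell most were, unlike the rising ones, abundant in the control cells. IGLL1 (ENSG00000128322, chr22:23573125-23580302), the lambda-like surrogate light chain of the pre-B-cell receptor, held 318 and 294 CPM in the controls against 44.1 and 48.6 CPM after knockdown, which is 15.2% of control. CHI3L2 (ENSG00000064886, chr1:111200771-111243440), a chitinase-like protein, held 243 and 229 CPM in the controls against 35.9 and 38.1 CPM after knockdown. ETV5 (ENSG00000244405, chr3:186046314-186110318), an ETS transcription factor, held 177 and 185 CPM in the controls against 30.2 and 30.1 CPM after knockdown. The groups did not overlap in any of the 3, which was a condition for naming them. Their log2 fold changes lay between -2.72 and -2.59 with standard errors of at most 0.068 (adjusted p = 1.86e-12 by edgeR for each). ETV5 shares 164 exon bases with DGKG.

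ALDH1A2, which makes retinoic acid, fell to 26.9% of control, ENDOD1, an endonuclease-domain protein, to 21.6%, and DAB1, a signalling adaptor of the reelin pathway, to 25.8%. GCNT1, which branches O-glycans (log2 fold change -1.93), TEN1, a telomere-capping protein that shares 974 exon bases with the read-through TEN1-CDK3 (217 and 220 counts to 57 and 62), and GOLGA8Q, a member of a multicopy golgin family whose reads can be shared with its copies (-2.52), also fell. TEN1 did not pass the test in the fit to all 8 libraries. TEN1-CDK3 itself went the other way, with a log2 fold change of 0.65. In the J.gamma1 controls TEN1 held 53 and 349 counts and TEN1-CDK3 365 and 66. Whether reads moved between these names was not tested. Among genes called lower, SCD (-1.70), HMGCS1 (-1.41), the tetraspanin TSPAN7 (-1.24) and CBX3, a heterochromatin protein (-1.18), lost the most CPM.

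**Figure D1:**
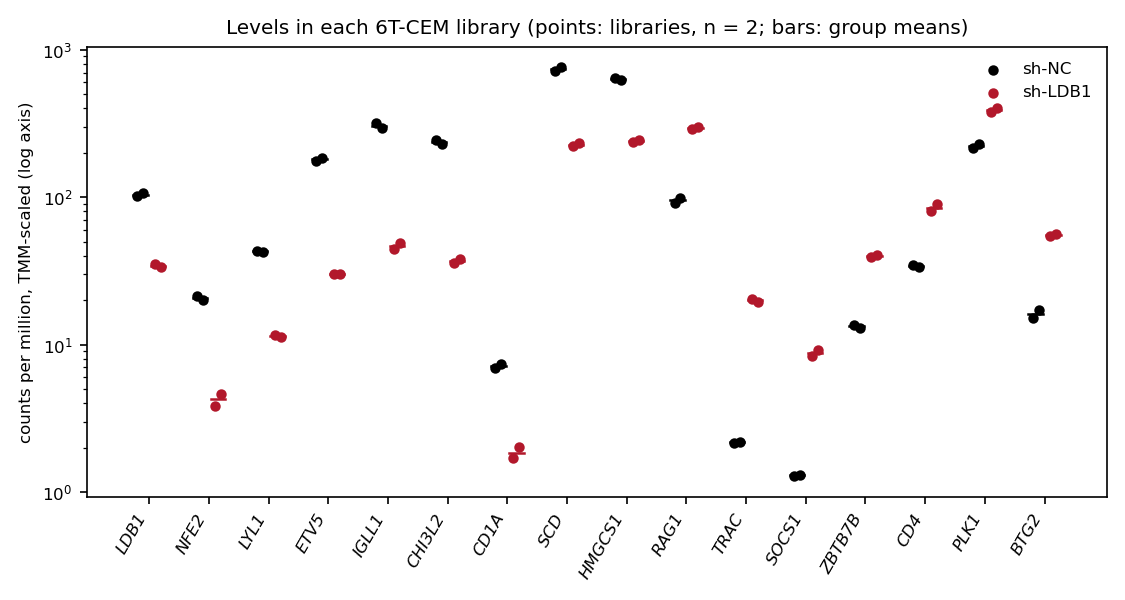
TMM-scaled CPM (log axis) of 16 genes in each 6T-CEM library, with black points for the sh-NC libraries, red points for the sh-LDB1 libraries (n = 2 each) and bars for the group means. LDB1 and the genes from NFE2 to HMGCS1 are lower in both knockdown libraries, and those from RAG1 to BTG2 are higher in both, with no overlap in any of them.

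The list of LDB1, its partners and factors linked to its complex, which also holds the ID genes, changed in both directions. Of the 22 members tested, LDB1 among them, 9 were lower and 5 higher at an adjusted p under 0.05 (edgeR), with a median log2 fold change of -0.07. The 5 higher were ID1, ID2 and ID3, described in the next paragraph, and SSBP4 and TCF12. NFE2 (ENSG00000123405, chr12:54292111-54301015), a bZIP factor of platelet and red cell genes, had 579 and 563 counts in the controls against 118 and 139 after knockdown, 20.7% of control. LYL1, the TAL1-related basic helix-loop-helix factor, held 43.3 and 42.6 CPM in the controls against 11.6 and 11.2 CPM after knockdown, a log2 fold change of -1.91 (adjusted p = 3.98e-09 by edgeR). HHEX, a homeodomain protein of blood progenitors, went from 2189 and 2166 counts to 823 and 718. In each of these 3 factors both knockdown libraries lay far below both control libraries. LMO2 fell from 324 and 314 counts to 224 and 204, CBFA2T3, the ETO2 corepressor, had a log2 fold change of -0.87, GATA2 one of -0.66 and GATA3 one of -0.54. TAL1 had 1154 and 1336 counts in the controls against 1345 and 1260 after knockdown (log2 fold change -0.06, adjusted p = 0.661 by edgeR), and the E proteins TCF3 (-0.07) and TCF4 (-0.06) did not pass the test either. LMO1 and LMO3 were at 0 counts in all 4 libraries, so LMO2 and LMO4 (-0.43) were the LIM-only genes measured here.

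The ID genes, whose products bind E proteins and keep them from DNA, rose. ID2 had 53 and 38 counts in the controls against 214 and 146 after knockdown, or 1.85 on the log2 scale (SE 0.268, adjusted p = 0.000108 by edgeR). ID1 rose from 239 and 264 counts to 490 and 513, and ID3 from 828 and 748 to 1415 and 1413. Of the list, SSBP4, a single-stranded-DNA-binding partner of LDB1 (0.38), and the E protein TCF12 (0.16) were the others that rose, while SSBP2 (-0.11) and SSBP3 (0.05) did not pass the test.

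Stem-cell and progenitor factors were mostly lower. Of 17 tested, 10 were lower and 1 higher, with a median log2 fold change of -0.33, and without the library sh-NC 2 the number lower was 5. ERG, an ETS factor of stem cells, went from 3928 and 4430 counts to 1720 and 1783 (log2 fold change -1.38). MYCN had 394 and 382 counts in the controls against 217 and 149 after knockdown (-1.21), and the myeloid factor SPI1 went from 33 and 47 counts to 12 and 12 (-1.84). MEF2C, at 3474 and 3824 counts in the controls against 5925 and 5434 after knockdown, was the exception that rose (0.52). MEIS1, HOXA9 and KIT did not pass the filter on low counts, and 20 of the 34 homeobox genes looked up did not. Of the 31 erythroid and megakaryocyte genes, 26 were not tested for the same reason, and NFE2, GFI1B (39 and 48 counts with sh-NC, 10 and 24 with sh-LDB1) and GYPC were among the 4 that fell of the 5 tested (median -1.46).

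Early lymphoid genes were mostly lower. Of 19 early lymphoid genes tested, 12 were lower and 4 higher, with a median log2 fold change of -0.60, and without sh-NC 1 the number lower was 7. Beside IGLL1 and CHI3L2, the lipid-antigen molecule CD1A went from 189 and 208 counts to 52 and 60 (log2 fold change -1.94), VPREB1, the other surrogate light chain gene, from 918 and 913 to 449 and 478 (-1.10), and DNTT, the enzyme that adds bases at receptor joints, from 46 and 35 to 10 and 18 (-1.65). CD1D (-1.13), CD1E (-0.78) and CD1C (-0.35) fell as well, though CD1C lost its adjusted p under 0.05 in 10 of 13 alternative settings, and CD1B (-0.77) did not pass the test. The members that rose were RAG1, RAG2, SMPD3, a sphingomyelinase (0.35), and PTCRA, the alpha chain of the pre-T-cell receptor, which went from 17 and 41 counts to 110 and 163.

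T-cell surface molecules gave 8 higher and 4 lower of 23 tested, with a median log2 fold change of 0.01. CD4, the coreceptor for class II molecules, held 34.4 and 33.5 CPM in the controls against 80.0 and 89.4 CPM after knockdown, a 2.49-fold rise (adjusted p = 1.84e-08 by edgeR). The CD3 chains that carry the receptor rose less, with log2 fold changes of 0.63 for CD3E, 0.49 for CD3G and 0.35 for CD3D. CD8A rose by 0.44 on the log2 scale, and CD8B had 119 and 159 counts in the controls against 154 and 127 after knockdown, which overlap. Among those that fell were the transferrin receptor TFRC (-0.71), the activation marker CD69 (-0.70), CD47 (-0.61) and CD5 (-0.54). ZBTB7B, the transcription factor that sets the CD4 lineage, held 13.5 and 13.0 CPM in the controls against 39.3 and 40.8 CPM after knockdown, or 1.59 on the log2 scale (SE 0.096, adjusted p = 2.23e-08 by edgeR). RUNX3, the factor of the CD8 lineage, fell from 1959 and 2208 counts to 1118 and 1087 (-1.04). CD4 and ZBTB7B were thus higher and RUNX3 lower in both knockdown libraries.

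Over all 26 T-lineage transcription factors tested, 8 were higher and 10 lower, with a median of -0.04, and without sh-LDB1 2 the number higher was 5. IKZF2 (-1.20) and EOMES, which went from 112 and 142 counts to 33 and 41, fell past the limit for a call. BCL6 (1.39) and NR4A1 (1.47) rose from 30 counts or fewer in each control library, and BCL11B (0.42) rose from a higher level. TCF7 rose by 0.16, and LEF1 (-0.09) and FOXP1 (0.11) did not pass the test.

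T-cell receptor signalling genes were more often lower, with 11 lower and 6 higher of 34 tested and a median of -0.06. The kinase TEC went from 579 and 631 counts to 229 and 232 (log2 fold change -1.51), and the Ras activator RASGRP1 fell by 0.88 on the log2 scale. The membrane adaptor SIT1 had 3165 and 3042 counts in the controls against 6646 and 6774 after knockdown (0.99), SH2D2A, the T-cell-specific adaptor, rose by 0.98 and LAT, the scaffold of the receptor signal, by 0.78. The kinases at the receptor itself did not pass the test, with LCK at 0.14 and ZAP70 at -0.05. In the NOTCH pathway, 8 members were lower and 4 higher of 21 tested, with a median of -0.11. NOTCH1 (-0.52), its protease ADAM10 (-0.48), RBPJ, the DNA-binding partner (-0.35), and the target DTX1 (-0.40) fell, whereas the ligand JAG1 (1.14) and FBXW7 rose and the target HES1 had 1701 and 1812 counts in the controls against 2031 and 1882 after knockdown (0.03).

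Genes of lipid synthesis fell nearly without exception. Sterols are built from acetyl-CoA through mevalonate, farnesyl diphosphate, squalene and lanosterol, and 19 of the 21 enzymes tested were lower and 0 higher, with a median log2 fold change of -0.57. HMGCS1 (ENSG00000112972, chr5:43287470-43313512), which makes HMG-CoA, held 645 and 627 CPM in the controls against 236 and 243 CPM after knockdown, 37.7% of control (adjusted p = 1.20e-10 by edgeR). Further down the chain FDPS (-0.93), FDFT1 (-0.90), SQLE (-0.42), LSS, which closes the sterol rings (-1.08), and CYP51A1 (-0.88) fell, and DHCR7 (-0.57) at the end did too. The exceptions were PMVK (-0.09) and SC5D (-0.06), which did not pass the test. Fatty acid synthesis gave 12 lower and 0 higher of 14 tested, with a median of -0.53. SCD (ENSG00000099194, chr10:100347233-100364826), the desaturase that makes oleate, held 717 and 758 CPM in the controls against 221 and 232 CPM after knockdown, 30.7% of control. ACACA (-0.75) and FASN (-0.64), which build the chain, and ACSS2, which makes acetyl-CoA from acetate (-1.01), fell with it. With 1 library left out, the number lower was between 16 and 18 for the sterol enzymes and 11 or 12 for fatty acid synthesis.

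Genes that control sterols did not move as a block, with 6 lower and 4 higher of 18 tested and a median of -0.13, and the number higher was 1 without sh-NC 1 and 2 without sh-NC 2 or sh-LDB1 2. SREBF2, the main activator of the sterol enzymes, had 7847 and 8640 counts in the controls against 8162 and 8374 after knockdown, a log2 fold change of -0.12 (adjusted p = 0.131 by edgeR). SREBF1, which drives fatty acid genes, fell by 0.49 on the log2 scale and INSIG1, a brake on both, by 0.99. ABCG1, a sterol exporter, went from 164 and 201 counts to 49 and 44 and MYLIP, a ubiquitin ligase that limits sterol uptake, from 364 and 378 to 161 and 175, both of them targets of liver X receptors. NR1H2, the liver X receptor beta, rose from 795 and 751 counts to 1939 and 1913, though it shares 1182 exon bases with NAPSA on the opposite strand. ABCA1, another target, had 4 and 4 counts in the controls against 0 and 0 after knockdown and was not tested.

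**Figure D2:**
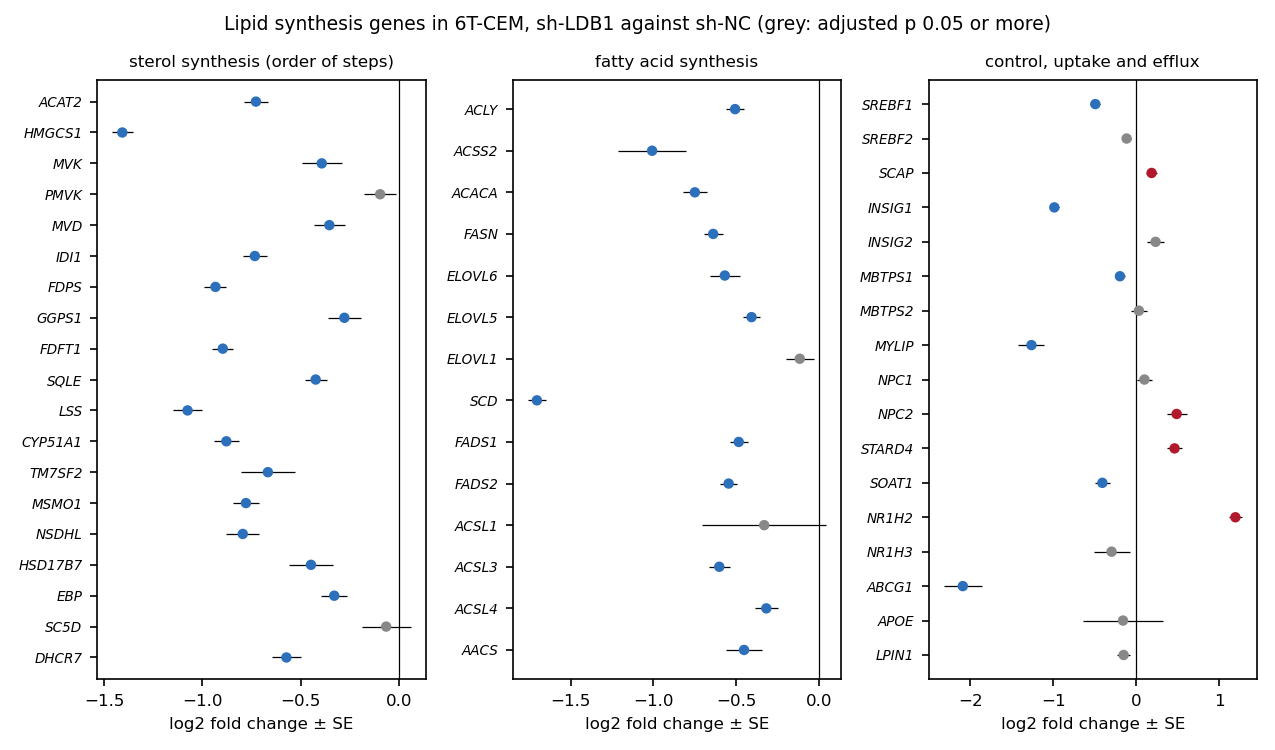
Log2 fold change (x axis, point, with its standard error as a line) of tested genes of sterol synthesis in the order of its steps, of fatty acid synthesis, and of sterol control, uptake and efflux, with falls at an adjusted p under 0.05 in blue, rises in red and the rest in grey. Nearly all enzymes lie left of 0, HMGCS1 and SCD farthest, while the control genes lie on both sides.

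Cell-cycle genes split by phase. Mitosis genes gave 26 higher and 1 lower of 30 tested, with a median log2 fold change of 0.43, and 0 of them passed the limit for a call. UBE2C (0.88), the ubiquitin carrier of the anaphase-promoting complex, the cytokinesis protein ANLN (0.88), the kinase PLK1 (0.81) and the motor KIF20A (0.79) rose most. PLK1 (ENSG00000166851, chr16:23677656-23690367) held 215 and 229 CPM in the controls against 377 and 403 CPM after knockdown, a 1.76-fold rise (adjusted p = 9.05e-08 by edgeR). CCNB1, the mitotic cyclin, rose from 7458 and 7468 counts to 12018 and 11864, and the proliferation marker MKI67 from 16808 and 18777 to 24436 and 25628. MAD2L1 (-0.22) fell, though it did not pass the test without sh-NC 1, sh-NC 2 or sh-LDB1 2, and CDK1 (0.18) and TOP2A (-0.06) did not pass the test. DNA replication genes, in contrast, gave 18 lower and 3 higher of 35 tested, with a median of -0.16, and without sh-NC 1 the number lower was 10. The number higher was 1 without sh-NC 1, sh-NC 2 or sh-LDB1 2. CCNE1, the cyclin that starts S phase, went from 365 and 413 counts to 188 and 194 (-1.15), CDC45 fell by 0.75 and MCM2, both of the replicative helicase, by 0.49 on the log2 scale. GINS1, of the same helicase, rose (0.50), and RRM2 (0.02) and CDT1 (0.03) did not pass the test.

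Of 17 genes that hold cells in G1 or release them, 7 rose and 1 fell, with a median of 0.14. BTG2, an antiproliferative gene, went from 411 and 485 counts to 1658 and 1683, a 3.43-fold rise (adjusted p = 5.59e-09 by edgeR). The inhibitors CDKN1B (p27) and CDKN2C (p18) rose from 2374 and 2303 counts to 5007 and 4117 and from 4185 and 4190 to 7844 and 7801. CDKN1A (p21) rose from 9 and 15 counts to 41 and 30. CDKN2A and CDKN2B were at or near 0 counts and were not tested. E2F5 fell (-0.48), though not without sh-NC 2, and CDK4 (-0.05), CDK6 (0.10) and RB1 (0.07) did not pass the test.

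**Figure D3:**
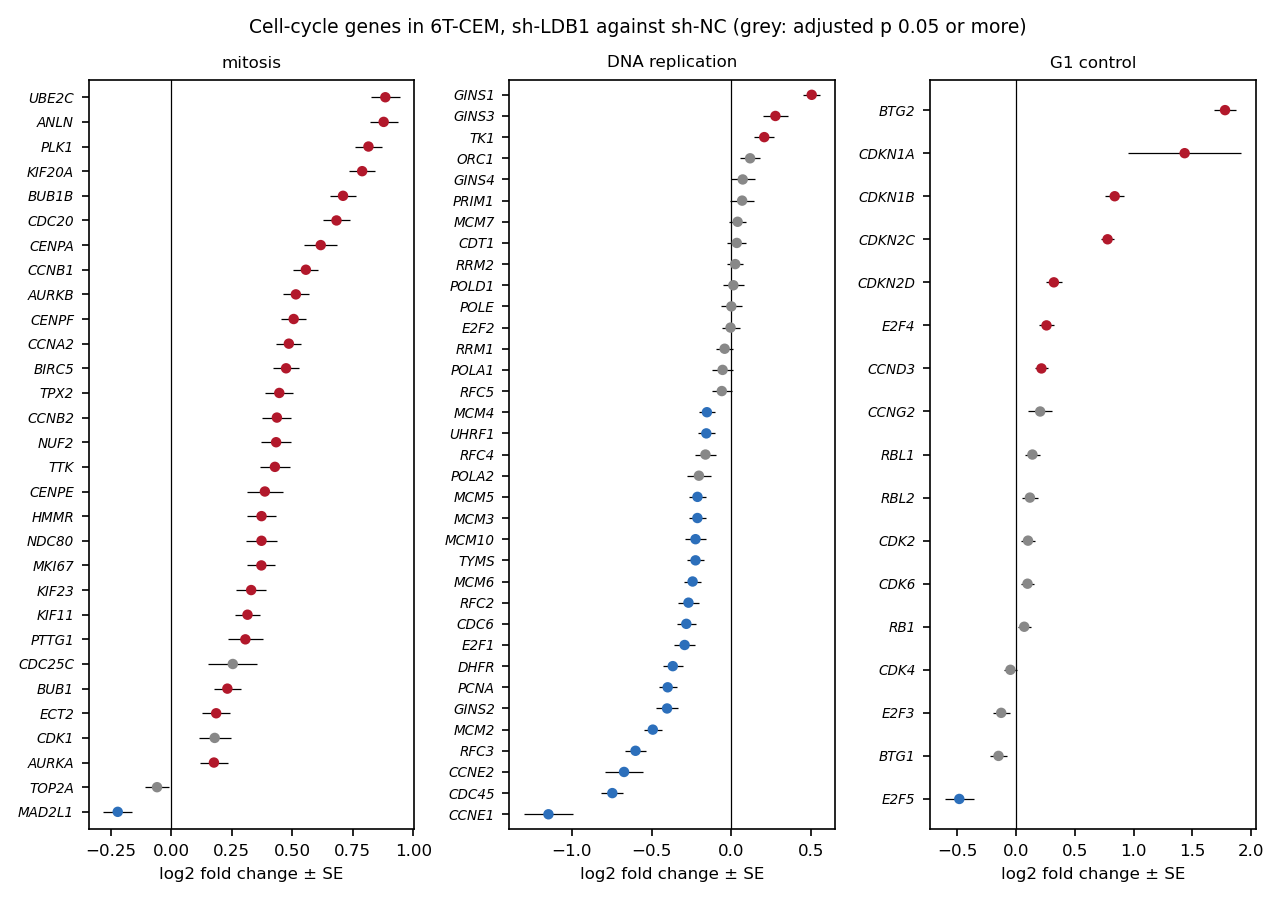
Log2 fold change (x axis, point, with its standard error as a line) of each tested gene of mitosis, DNA replication and G1 control, sorted by value, with rises at an adjusted p under 0.05 in red, falls in blue and the rest in grey. The mitosis genes lie right of 0 with few exceptions, the replication genes mostly left, and BTG2 and the CDK inhibitors lead the G1 panel.

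The promoters of the sterol and mitosis lists, whose members nearly all moved one way, were searched for motifs, and so were those of the fatty acid list, which mostly fell, and of the ATF4 list, which went both ways. In the RefSeq table (GRCh38.p14, 250 bases before to 50 after each start), 16 sterol enzymes, 16 fatty acid genes, 25 mitosis genes and 27 genes of the ATF4 list described next had an entry. The letters CCAAT on either strand, the core of the box that the factor NF-Y binds, were in 12 of the 16 sterol enzyme promoters (75.0%) and in 19 of the 25 mitosis promoters (76.0%), against 35.7% of all 27305 promoters and 37.1% of 10446 tested genes. They were in 7 of the 16 fatty acid promoters (43.8%) and in 18 of the 27 ATF4 list promoters (66.7%), so lists that fell stood both well above and close to the background. The pattern TCACNCCAC, of the sterol regulatory type, was in 0 of the sterol enzyme promoters and in 1.15% of all. TGATGNAA, of the ATF4 type, was in 6 of the 27 ATF4 list promoters (22.2%) and in 3.67% of all promoters and 1.57% of those of tested genes. The 6 include CHAC1 and HERPUD1 (log2 fold change 0.34), which rose, ATF3, which fell, and ASNS (0.16), which did not pass the test. GATAA, the GATA core, was in 18.2% of the promoters of genes called higher and 20.2% of those called lower, against 14.1% of tested genes and 23.2% of all promoters. CAGNTG, the E box, was in 50.4% and 53.4%, against 43.1% of tested genes and 49.9% of all. Either strand was searched, and GATAA and the other patterns were counted apart, whatever their overlap. Windows of the gene strand around a match follow, with the match in capitals, where ATTGG and TTGCATCA are a match on the opposite strand.
HMGCS1, chr5:43313498-43313522, minus strand: accggccgcgATTGGctgtgggagc
LSS, chr21:46228910-46228934, minus strand: cggcgctctgATTGGttgcgtgggc
FDPS, chr1:155308734-155308758, plus strand: cggccagcagCCAATcagcgcggct
PLK1, chr16:23678806-23678830, plus strand: atccccgcggCCAATcagtggcgcg
KIF20A, chr5:138179008-138179032, plus strand: ccttacgcggATTGGtagctgcagg
CHAC1, chr15:40953252-40953279, plus strand: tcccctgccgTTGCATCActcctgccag
HERPUD1, chr16:56931956-56931983, plus strand: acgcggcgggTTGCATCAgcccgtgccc
ATF3, chr1:212565206-212565233, plus strand: aaggtcaggaTGATGGAAggctgtcata

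Genes of the ATF4 and endoplasmic reticulum stress response gave 14 higher and 5 lower of 29 tested, with a median log2 fold change of 0.16, and without sh-NC 2 the number higher was 9 and without sh-NC 1 the number lower was 3. CHAC1, which breaks down glutathione, went from 37 and 41 counts to 143 and 81 (1.39), the cystine carrier SLC7A11 from 505 and 444 to 1093 and 790 (0.86), and DDIT3, the factor CHOP, from 128 and 124 to 228 and 261 (0.83). ATF4 itself had 17481 and 17336 counts in the controls against 20281 and 20752 after knockdown (0.12, adjusted p = 0.116 by edgeR), and the chaperone HSPA5 was at -0.01. XBP1, which drives the other arm of the response, fell from 2527 and 2352 counts to 1495 and 1551 (-0.80), and ATF3 fell too (-0.69).

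Lysosome and autophagy genes gave 12 higher and 0 lower of 25 tested, with a median of 0.24. GABARAPL1, which is joined to autophagosome membranes, went from 172 and 177 counts to 690 and 613 (1.78), the kinase ULK1, which starts autophagy, from 784 and 920 to 2069 and 1934 (1.11), and the protease CTSA from 3143 and 3328 to 6165 and 6132 (0.80). TFE3, a transcription factor of lysosome genes, rose by 0.71 on the log2 scale, and its relative TFEB had 63 and 69 counts against 71 and 62. Genes with symbols of the proton V-ATPase, the pump that acidifies lysosomes, were looked up after values were seen. They gave 2 higher and 3 lower of 27 tested, with a median of 0.03. Non-coding RNAs and a pseudogene whose symbols begin the same way are among the 27. ATP6V0E2 (-0.99) and ATP6V1E1 (-0.57) were among those that fell. Glucocorticoid receptor targets gave 8 higher and 3 lower of 16 tested, with a median of 0.32, and the receptor NR3C1 itself was at -0.11 and did not pass the test. TSC22D3, the target GILZ, went from 86 and 95 counts to 334 and 323 (1.74) and TXNIP, which restrains glucose uptake, from 1147 and 1333 to 2593 and 2692 (0.97). FKBP5, a standard target of the receptor, was at -0.04. The number lower was 1 without sh-NC 2 or sh-LDB1 1. MEF2 factors and the class IIa deacetylases that hold them back gave 6 higher and 0 lower of 9 tested (median 0.47), with HDAC4 (0.60), HDAC5 (0.77) and HDAC9 (1.09) among the 6.

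Death and survival genes moved in both directions. In the BCL2 family 3 were lower and 1 higher of 15 tested, with a median of 0.00. BCL2 went from 1145 and 1391 counts to 835 and 720 (-0.83), whereas MCL1 and BCL2L1 were each at 0.00. BMF, a killer of the family, rose from 2 and 3 counts to 52 and 51, too few in the controls for a fold change. Of 23 death receptor and caspase genes tested, 7 were higher and 6 lower, with a median of 0.06, and the number higher was 4 without sh-NC 1 and 3 without sh-NC 2. CASP8 had 1479 and 1504 counts in the controls against 3395 and 3085 after knockdown (1.00), and the death ligand TNFSF10 (-1.08) and its receptor TNFRSF10A (-1.04) fell. Targets of p53 were divided, with 7 higher and 7 lower of 22 tested (median 0.12), but the number higher was 3 without sh-NC 2 and 4 without sh-LDB1 1, and the number lower 3 without sh-NC 1, 2 without sh-NC 2 and 4 without sh-LDB1 2.

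In the cytokine receptor and JAK-STAT list 6 were higher and 6 lower of 23 tested, with a median of 0.05. STAT5A went from 6793 and 7335 counts to 3459 and 3514 (-1.14), STAT5B from 4117 and 4808 to 2672 and 2695 (-0.85) and STAT3 fell by 0.57 on the log2 scale, and the STAT5 genes share 415 exon bases on opposite strands. SOCS1, SOCS2 (0.39) and CISH (0.77), inhibitors that STAT5 is known to induce, rose, as did the receptor IL7R (0.34). In the ERK feedback list, 5 of 18 were lower and 5 higher, with a median of 0.03. Beside ETV5, the ERK inhibitor SPRY1 went from 2099 and 2290 counts to 929 and 920 (-1.37), while DUSP6, a phosphatase of ERK, was at -0.17 and did not pass the test, and JUN rose from 226 and 215 counts to 539 and 510 (1.13).

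Interferon response genes gave 11 higher and 8 lower of 39 tested, with a median of 0.17, but the number higher was 6 without sh-LDB1 2 and 7 without sh-NC 2, and the number lower 3 without sh-NC 1 and 5 without sh-LDB1 1. IFI44 rose from 525 and 463 counts to 1050 and 1068 and EPSTI1 fell from 318 and 321 to 162 and 140. In the NF-kB list, 6 were higher and 5 lower of 21 (median -0.06). TNFAIP3, the brake A20, fell from 3358 and 3661 counts to 1812 and 1828 (-1.07), while the lymphotoxin gene LTB (1.09) and the adaptor TRAF1 (1.61) rose. Homing and adhesion gave 10 lower and 7 higher of 24, with a median of -0.15. The integrin chain ITGA6 went from 2702 and 3048 counts to 1192 and 1125 (-1.43), the chemokine receptors CCR4 (-1.20) and CCR7 (-0.94) fell, and ITGAL, the alpha chain of LFA-1, rose (0.70).

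Of the 76 oxidative phosphorylation genes tested, 27 were lower and 0 higher, with a median of -0.12, and the number lower was 14 without sh-NC 1, with 1 higher, and 17 without sh-NC 2. Subunits of complex I led, with NDUFA7 (-1.15) and NDUFA12 (-0.84). In glycolysis 9 were lower and 4 higher of 31 tested (median -0.08). HK1 went from 7036 and 7276 counts to 4859 and 4912 (-0.67), whereas the glucose carrier SLC2A3 rose from 361 and 330 to 1133 and 1141 (1.60) and PKM, pyruvate kinase, from 43005 and 44816 to 71936 and 75322 (0.62). Ribosomal protein genes were mostly not past the test, with 3 higher and 8 lower of 79 tested and a median of -0.04, and the number lower was 2 without sh-NC 1 and 5 without sh-LDB1 1, the number higher 0 without sh-NC 2 and 1 without sh-LDB1 2. In the MYC network 8 were lower and 6 higher of 24 tested (median -0.01), and the number higher was 2 without sh-NC 1 and 3 without sh-NC 2 or sh-LDB1 2. MYC went from 11117 and 11640 counts to 9027 and 9374 (-0.43), and its antagonists MXI1 (0.49) and MNT (0.40) rose.

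The lists that remain gave mixed counts. Ion channels gave 5 higher and 9 lower of 27 (median -0.12), where KCNH2 went from 1125 and 1190 counts to 509 and 484 (-1.34) and KCNK5 rose (1.18). Chromatin looping factors gave 8 higher and 2 lower of 18 (median 0.12), with CREBBP at 0.44 and STAG1 at 0.41, and CTCF at 0.03 did not pass the test. Among PRC2 and DNA methylation genes 4 were higher and 3 lower of 18 (median 0.08), KDM6B (0.82) and DNMT3B (-0.82) moving furthest. Antigen presentation gave 2 higher and 4 lower of 15 (median -0.05) and purine and nucleoside drug genes 3 higher and 5 lower of 22 (median -0.11). Homeobox genes gave 2 higher and 2 lower of 14 (median 0.10) and cytotoxic lymphocyte genes 2 higher and 3 lower of 9 (median 0.11), with NKG7 at 331 and 302 counts against 1007 and 970. Leaving out 1 library moved some of these counts by more than 1.5 times: ion channels had 3 higher and 5 lower without sh-NC 2 and 3 higher without sh-LDB1 2, and purine genes 1 higher and 3 lower without sh-NC 1 and 3 lower without sh-NC 2. Looping factors had 0 lower without sh-NC 2 and 1 without any of the others, homeobox genes 0 higher without sh-NC 1 and 1 without sh-NC 2 or sh-LDB1 2, and antigen presentation 1 higher without sh-NC 1 or sh-LDB1 1.

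Seed sites of the hairpins were counted in the 3′ UTRs of 11998 tested genes, since a hairpin can lower transcripts other than its target. The site of sh-LDB1#1 was in 10.3% of these genes, in 53 of 288 called lower (18.4%) and in 18 of 313 called higher (5.75%). The sites of sh-LDB1#2 and sh-LDB1#3 were in 21.5% and 8.33% of the genes called lower, against 21.1% and 9.29% of all. Genes with a site of sh-LDB1#1 had a median log2 fold change of -0.056 (1237 genes) and those without of -0.004, and 4.28% and 2.18% of them were called lower. ETV5 holds 3 such sites, MEF2C, which rose, 2, and NFE2, GCNT1 and LSS 1 each, while IGLL1, CHI3L2, LYL1, HMGCS1 and SCD hold 0. The part of these sites in the falls was not tested.

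LDB1 was also knocked down in J.gamma1, though less deeply. The log2 fold change of LDB1 was -0.89 there against -1.60 in 6T-CEM. Differences below can come from the line or from the depth of knockdown, which cannot be told apart here. Of the 824 genes called in 6T-CEM, 268 (32.5%) showed unequal log2 fold changes in the lines at an adjusted p under 0.05 (edgeR, interaction term over all 8 libraries), against 24.4% of all genes tested for it. For 182 of the 268 the change was further in the direction of 6T-CEM and for 86 it was larger in J.gamma1. The 824 genes were chosen by their change in the same 6T-CEM libraries. That choice alone favours unequal changes and changes further in 6T-CEM, so these counts cannot compare the lines. Of the called genes that were also tested in J.gamma1 on its own, 579 of 687 had the same sign there. The share with the same sign over all genes tested in both lines was not counted, so this number has no background. Other called genes moved in opposite directions, and 37 did so with an adjusted p under 0.05 in both lines and for the difference between them. Chosen after their values were seen, TNFRSF10A fell by 1.04 on the log2 scale in 6T-CEM and had a log2 fold change of 2.31 in J.gamma1, the natural killer receptor CD244 went from 332 and 343 counts to 147 and 126 in 6T-CEM (-1.43) and had 1.46 in J.gamma1, and HDAC9 rose by 1.09 in 6T-CEM and had -0.97 in J.gamma1. MYC, whose log2 fold change was -0.43 here, had 0.54 in J.gamma1 (difference -0.97, adjusted p = 1.49e-06 by edgeR). The mitosis genes named above for the largest rises had a larger log2 fold change in 6T-CEM than in J.gamma1. The differences were 0.64 for UBE2C, 0.57 for ANLN, 0.35 for KIF20A and 0.25 for PLK1. These genes too were chosen by their rise in the same 6T-CEM libraries, which alone favours such differences. Of the other mitosis genes named as rising, CCNB1 had a difference of 0.05 and MKI67 one of 0.57.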

How the data were processed

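Libraries were prepared from 1 µg of total RNA (TRIzol, TruSeq RNA kit) and sequenced by a service company, and reads were aligned to hg38 with HISAT2 2.2.0 and processed with StringTie per the labels. Annotation release and strand setting are not given in the sources used here. The deposited values are raw counts per gene, used unrounded. The 4 6T-CEM libraries were fitted alone with edgeR 4.0.16 (R 4.3.3): filterByExpr, TMM scaling, a robust quasi-likelihood fit and Benjamini-Hochberg adjustment. Library totals were 27559805 and 28872073 (sh-NC) and 29980344 and 29757936 (sh-LDB1), and the median standard error of a log2 fold change was 0.125. The scripts were tested on simulated data. Genes named are LDB1 and, among called genes without overlap between the groups, the 12 higher and 12 lower with the largest fold change. For the 12 each way a mean of at least 100 counts was required. Also named are the 6 with the largest CPM difference each way among the same called genes, and up to 4 per list. Members needed to describe a list's roles were added. The part of the series and the lists were chosen with earlier results of these data known. J.gamma1 was fitted alone in the same way for its own values, and entered the interaction fit and, as an alternative, a fit to all 8 libraries. DESeq2 1.42.0, other scalings, filters, thresholds and leaving out each library were alternatives. Gene locations and 3′ UTRs are from a GRCh38 annotation and promoters from RefSeq tables, which may differ from the authors' release. Some genes that the naming rule selected and 1 list are not reported here.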

Additional observations from a re-analysis of the deposited data

Results flagged for a closer look

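Of the 35 genes named for their size of change, 17 had a log2 fold change that differed between 6T-CEM and J.gamma1 at an adjusted p under 0.05 (edgeR, interaction term). Over all genes tested for it, the share was 24.4%. The 35 were chosen by their change in the same 6T-CEM libraries, which alone favours unequal changes, so this count cannot compare the lines. The difference, 6T-CEM minus J.gamma1, was -0.70 for LDB1 itself, which fell less in J.gamma1. Among genes that rose in 6T-CEM it was 4.84 for MYH7B, 1.55 for TRAC, 1.54 for SOCS1 and 1.51 for CREB3L3, and -1.58 for RAG1, -1.18 for SH3TC1 and -1.59 for SEMA7A, which rose more in J.gamma1. Among genes that fell in 6T-CEM it was 2.93 for IGLL1, 0.30 for CHI3L2, 1.77 for ETV5 and 3.80 for ALDH1A2, which fell further in J.gamma1, and -0.66 for ABCG1, -0.88 for CD1A and -0.30 for HMGCS1, which fell further in 6T-CEM. The values of -6.34 for EPHA1-AS1 and 7.97 for NFE2 rest on a J.gamma1 group with 0 counts in both libraries and are no bound on the difference.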

How the results depend on the processing

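The 2 libraries per group limit what can be told from 1 library alone. Genes called higher numbered 440 by edgeR, 233 with a mean of at least 50 counts, 259 with the DESeq2 Wald test, 953 with a fold change beyond 1.5 and 1015 with glmTreat against a fold of 1.2. Genes called lower numbered 384, and 237, 259, 985 and 1162 with the same filter, DESeq2 Wald test, fold limit and glmTreat. With 1 library left out, which leaves a group with a lone library assumed to vary like the others, the counts were 335 to 396 called higher, 303 to 386 called lower, 1572 to 1777 higher and 1662 to 2098 lower at an adjusted p under 0.05, and the log2 fold change of LDB1 was -1.63 to -1.56. The replicate numbers did not pair the libraries (correlation of deviations -0.018), and a fit with the number as a block gave 426 called higher, 375 called lower and 4587 genes that differed between the lines. Scaling by library size alone moved the median of all genes to 0.0426, and the share of called genes that were higher lay between 46.5% and 57.8%. Of 267 genes over 13 settings, 34 lost an adjusted p under 0.05 in at least 1 setting, among them CD1C in 10, CDKN1A, GFI1B and TCF12 in 6 each and CD1D in 5, and the cause was not tested. The sign turned for 11 genes, none of which passed the test in any setting. With 1 library left out their log2 fold changes ran from -0.057 to 0.058 for BCL2L1, -0.357 to 0.31 for CD2, -0.273 to 0.094 for CD8B, -0.039 to 0.102 for CTCF, -0.090 to 0.005 for FKBP5, -0.003 to 0.070 for HES1, -0.066 to 0.050 for HSPA5, -0.043 to 0.059 for MCL1, -0.279 to 0.123 for SC5D, -0.131 to 0.030 for TAL1 and -0.107 to 0.011 for ZAP70. Without the low-count filter BCL2L1 was at -0.006 and MCL1 at -0.003, in the fit to all 8 libraries BCL2L1 was at -0.003, with the replicate block CD2 was at -0.006, and HSPA5 was at 0.023 with upper-quartile and 0.031 with library-size scaling.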

Other observations

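Some gene families outside the lists were looked up after their values were seen, so their counts are a description only. The background is again the 15.1% higher and 16.2% lower of all tested genes. Of 7 GIMAP genes tested, GTPases of lymphocyte survival, 6 were lower and 0 higher at an adjusted p under 0.05 (edgeR), with a median log2 fold change of -0.76. GIMAP4 went from 305 and 298 counts to 120 and 135 (-1.36) and GIMAP5 from 1167 and 1232 to 609 and 625 (-1.08). Of 4 ephrin receptor genes tested, 3 were higher, with EPHA1 going from 905 and 918 counts to 2388 and 2360 (1.26) and EPHB6 rising by 0.52 on the log2 scale. Of 37 histone genes tested, 8 were higher and 0 lower, with a median of 0.37, and H2AC6 went from 44 and 31 counts to 208 and 155 (2.14). The share of histone genes higher was not far above the background, and most of the 37 held few counts. Of 7 SOCS genes tested 4 were higher and 0 lower, and of 9 KLF genes 4 were higher and 0 lower, with KLF10 going from 222 and 250 counts to 668 and 603 (1.31). The gamma chain segments of the T-cell receptor gave 0 higher and 0 lower of 6 tested. Alpha and delta segments gave 2 higher and 0 lower of 7, beta segments 2 and 0 of 6, and ephrin ligands 1 and 0 of 5. GOLGA8 symbols gave 1 and 5 of 12, tubulin symbols 4 and 8 of 25, and heat shock symbols 3 and 6 of 25. The GOLGA8, tubulin and heat shock sets were taken by the start of the symbol and hold pseudogenes. The tubulin set also counts genes of the gamma-tubulin complex (TUBGCP3 among those higher, TUBGCP5 among those lower) and the antisense RNA TUBA1B-AS1, which was lower.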
